A study of Mus musculus with 6 samples.

Results

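The genes described here are 46 genes of DNA damage signalling and repair, chosen by name from the ATM and ATR checkpoint pathways, double-strand break repair, base excision repair and the neighbouring repair of crosslinks. They were found on the array by the target name of each probe, ignoring case, and all 46 were among its 30774 target names. The array writes them in capitals (ATM, RTEL1, FANCD2, PARP1, BRCA2), and mouse symbols are used below. A gene was tested where a probe was detected, with a detection value of at least 0.95, on at least 3 of the 6 arrays, and its brightest such probe was used. By that rule 34 of the 46 were tested, of 12824 genes in all. The other 12 had no probe under these target names that was detected on any array. Of these, Palb2 was detected under an older name.

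RNA came from primary mouse embryonic fibroblasts, connective-tissue cells cultured from embryos, isolated at embryonic day 12.5 and passaged once, on the C57BL/6 background. The 3 knockout cultures were Asciz-/- and the 3 wild-type cultures Asciz+/+, from 3 embryos of each genotype, and no culture is labelled as treated with a damaging agent. Each culture was measured on its own bead array. The sources used here do not state how the Asciz allele was made.

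Asciz, now named Atmin, encodes a zinc-finger transcription factor that was first described as a partner of the kinase ATM and in the response to damaged bases. ATM is activated at broken DNA ends by the Mre11, Rad50 and Nbn complex and phosphorylates histone H2AX and the checkpoint kinase Chk2, while ATR responds to single-stranded DNA and acts through Chk1. Broken ends are joined directly by the Ku proteins, DNA-PKcs and ligase 4, or copied from the sister chromatid by homologous recombination, which needs Brca1 and Brca2. In base excision repair a glycosylase removes the damaged base, Apex1 cuts the backbone, and polymerase beta and a ligase fill and seal the gap. Much of this control acts on proteins, by phosphorylation and recruitment, which RNA levels do not show.

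Between 17580 and 18794 probes were detected per array, with a median of 43 beads per probe on each. As a check of the labels, the targeted gene Atmin measured 8.70, 8.87 and 8.77 in wild-type replicates 1 to 3 and 6.93, 6.95 and 6.47 in knockout replicates 1 to 3 on the normalized log2 scale, and fell by 1.99 (SE 0.16, adjusted p = 0.00730, limma). Its target Dynll1, a dynein light chain, fell by 1.89 (SE 0.11, adjusted p = 0.00157, limma). Wild-type replicate 1 alone had detectable Xist, at 8.20 against 4.32 to 4.37 elsewhere, so it had an XX pattern where the other cultures had an XY pattern. Knockout replicate 3 correlated least with the other arrays across genes (mean 0.980, against 0.985 to 0.989). All 6 cultures expressed fibroblast markers, with 13 of 14 tested and a mean of 10.48 in wild type and 10.40 in knockout cultures. Because the RNA is from bulk cultures, fewer cells of a type and less RNA per cell cannot be told apart.

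None of the 34 tested repair genes passed an adjusted p of 0.05, against 7 of 12824 genes, or 0.0546%, over the whole array (limma, Benjamini-Hochberg over all genes). Without adjustment, 6 of the 34 had p under 0.05 and all 6 were lower in the knockout cultures, namely Rtel1, Rif1, Atm, Fancd2, Parp1 and Brca2. Over all genes 7.75% had p under 0.05, 3.75% being lower and 4% higher. The 3 knockout values lay all below the 3 wild-type values for 7 members, the same 6 and Xrcc1, and all above for 0 members. The shares over all genes were 7.5% and 6.87% (14.4% in either direction). Rif1 is in both counts although it was detected on the wild-type arrays only, so that it had to differ to be tested. Over the 33 members detected in both genotypes, a restriction added after its values were seen, 5 were lower at an unadjusted p under 0.05 and 6 did not overlap, beside 3.56% and 7.29% of all 12770 such genes. The median difference of the 34 was -0.08, with 23 below 0, beside a median of -0.01 and 51.4% below 0 over all genes. It was -0.034 without wild-type replicate 2. The differences lay between -0.73 (Rtel1) and 0.28 (Tdg). Where probes were grouped by reference gene symbols, a brighter probe stood for Atm, at -0.01. In that setting 5 of 34 members were lower at an unadjusted p under 0.05, beside 3.78% of all genes.

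The precision sets what these values can show. The 95% confidence interval of the difference lay within 2-fold in either direction for 33 of the 34 members, Rtel1 being the exception, and within 1.5-fold for 25. These intervals describe normalized values. Rif1, undetected on the knockout arrays, is among the 33, but its interval does not limit its fold. Chek1 and Mbd4 also lay near background, where differences are compressed. Standard errors ran from 0.11 to 0.19 on the log2 scale. The median SD within genotypes was 0.17 for the members and 0.18 for all genes.

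**Figure D1:**
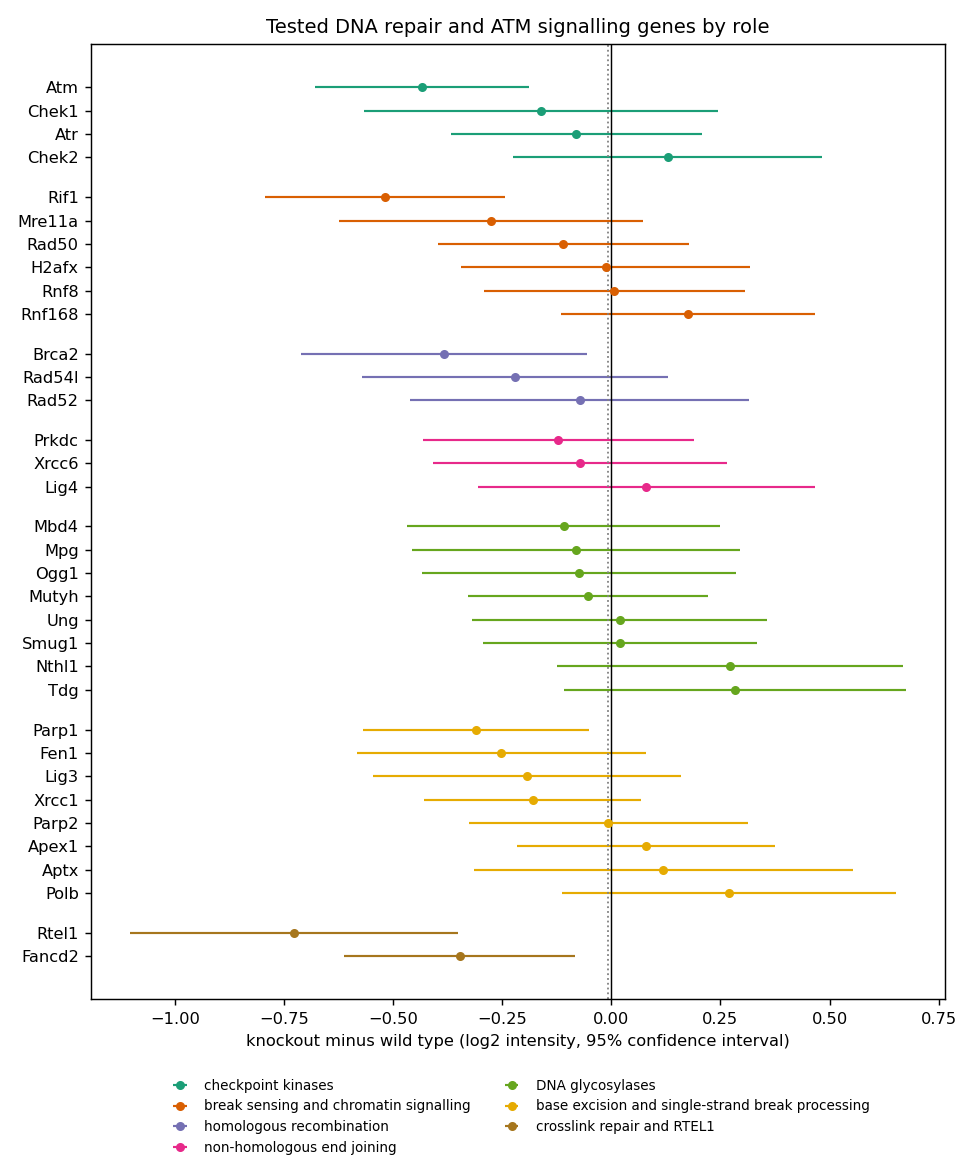
Knockout minus wild type for the 34 tested genes, by role, on the log2 intensity scale. Points are fitted differences, bars 95% confidence intervals and the dotted line the median of all 12824 genes (-0.01). The intervals of 6 genes, Atm, Rif1, Brca2, Parp1, Rtel1 and Fancd2, lie below 0 and none lies above. Over all genes 3.75% were lower and 4% higher at an unadjusted p under 0.05 (limma), which corresponds to such an interval. Rif1 was detected on no knockout array.

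Among the 4 checkpoint kinases, 3 were below 0 and 0 passed (median -0.12), and Atm had the largest difference. Atm, the apical kinase of the double-strand break response, measured 7.18, 7.06 and 7.14 in wild-type replicates 1 to 3 and 6.70, 6.69 and 6.69 in knockout replicates 1 to 3. The genotypes did not overlap, and the knockout values were almost equal to each other. The difference was -0.43 (SE 0.11, 95% confidence interval -0.68 to -0.19), which did not pass over all genes (limma, adjusted p = 0.467). Before normalization the same probe read 262, 182 and 236 intensity units in wild type and 189, 157 and 150 in knockout cultures, so that wild-type replicate 2 lay below knockout replicate 1. The standard error over the beads of an array (their SD divided by the square root of their number) was between 6.09 and 13.2 units.

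The other probes of Atm gave smaller differences. A second detected probe measured 6.47, 6.31 and 6.14 in wild type and 6.46, 6.06 and 5.88 in knockout cultures, a difference of -0.17 (SE 0.17), with overlapping genotypes. A brighter probe carried under the older name C030026E19RIK, which the reference gene table gives as a synonym of Atm, averaged a difference of -0.01 (SE 0.19). Its highest value, 9.45, was in knockout replicate 3. The third probe named Atm was detected on no array. The part of the transcript that each probe reads was not analysed here.

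Atr, the kinase of replication stress, measured 7.02, 6.96 and 6.77 in wild type and 6.85, 6.94 and 6.72 in knockout cultures, which put the difference at -0.08 (SE 0.12, limma adjusted p = 0.900). Chek2, the effector kinase downstream of Atm, measured 6.45, 6.35 and 6.55 against 6.43, 6.44 and 6.87, a difference of 0.13 (SE 0.15) in which knockout replicate 3 was the high value. Without that culture it was -0.016. Chek1, the effector downstream of Atr, lay near background, being detected on 1 wild-type and 2 knockout arrays. It measured 4.72, 5.18 and 4.72 in wild type and 4.89, 4.48 and 4.77 in knockout cultures. The difference was -0.16 (SE 0.17), and -0.0088 without wild-type replicate 2. The genotypes overlapped for these 3 kinases.

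The promoters of Atm and Rtel1 are shown because of the probes used for them among the tested members. These had the widest gap between genotypes relative to their spread and the largest difference, respectively. The other detected probes of Atm did not separate the genotypes. Each line gives the 250 bases before the RefSeq start of transcription in GRCm38.p6, Atm from the minus strand of chr9:53536672-53536921 and Rtel1 from the plus strand of chr2:181319474-181319723. Capitals mark a CCAAT box on either strand.
Atm: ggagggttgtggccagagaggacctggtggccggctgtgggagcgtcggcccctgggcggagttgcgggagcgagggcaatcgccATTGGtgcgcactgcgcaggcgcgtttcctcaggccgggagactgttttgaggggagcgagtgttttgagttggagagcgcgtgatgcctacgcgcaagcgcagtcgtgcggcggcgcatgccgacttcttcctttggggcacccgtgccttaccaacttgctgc
Rtel1: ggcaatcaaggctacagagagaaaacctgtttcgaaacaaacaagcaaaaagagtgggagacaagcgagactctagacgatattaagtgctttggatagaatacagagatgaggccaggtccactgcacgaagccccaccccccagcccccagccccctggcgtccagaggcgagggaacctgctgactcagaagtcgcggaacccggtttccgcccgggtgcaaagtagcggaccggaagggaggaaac
The Atm window held 1 CCAAT box, read here as its complement, and the Rtel1 window held none. Upstream of Atm, on the opposite strand and 376 bases from its start, lies the start of Npat, a regulator of histone gene transcription. The whole Atm window thus lies between these starts. None of the 3 Npat probes reached detection on 3 arrays, so the paired gene gives no value here.

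RefSeq promoter windows of 250 bases before to 50 after the start were matched by symbol for 37 of the 46 genes (42 windows). CCAAT was found on either strand in 23 of the 42 (54.8%), against 37.4% of all 32851 windows. The E2F core, searched as TTTGGCG or TTTCGCG on both strands, was in 4 of 42 (9.52%, in Brca2, Chek1, Nthl1 and Rnf168) against 2.37% of all. The cell cycle homology region, searched as TTTGAA on both strands, was in 3 of 42 (7.14%, in Bard1, Fen1 and Rnf8) against 17.9%. Motifs were counted separately whether or not they overlapped, and a match is not a binding site. A start on the opposite strand within 1000 bases upstream was found for 15 of the 37 genes. Among pairs with both genes tested, Osgep had 0.06 beside Apex1 at 0.08, Ankrd49 0.01 beside Mre11a at -0.28, Toe1 0.03 beside Mutyh at -0.05, and Tsc2 -0.11 beside Nthl1 at 0.27.

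Of the 8 genes that sense breaks and build the chromatin signal around them, 6 were tested, 4 were below 0 and 0 passed (median -0.06, and -0.013 over the 5 left without Rif1). Rif1, which protects broken ends from resection and also times replication origins, measured 5.06, 4.98 and 5.21 in wild type and 4.52, 4.66 and 4.51 in knockout cultures. On the knockout arrays the probe was not well above background, so the fold is given as a bound. The wild-type mean was at least 1.21-fold higher on the normalized scale (fitted difference -0.52, SE 0.12, limma adjusted p = 0.462). That bound sets the wild-type mean against, on each knockout array, the lowest value among detected probes or the probe's own, whichever was higher. It has no standard error, and the probe was tested only because it was detected in wild type. A second Rif1 probe was detected on 2 arrays and had -0.32, and the third, detected on none, had -0.03.

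Mre11a, the nuclease of the end-sensing complex, measured 9.18, 9.01 and 8.83 in wild type and 8.67, 8.95 and 8.58 in knockout cultures, or -0.28 as the difference (SE 0.15, limma adjusted p = 0.682). Its other detected probes had -0.45 and -0.20. Rad50, the arm that tethers ends in the same complex, had -0.11 (SE 0.12), and its second detected probe 0.09. The 3 probes of Nbn, the remaining subunit, were detected on no array, so the complex was measured in part only. H2afx, which encodes the histone variant that ATM phosphorylates, had -0.01 (SE 0.14).

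The ubiquitin ligases that act after H2AX had small differences. Rnf168 measured 7.57, 7.45 and 7.46 in wild type and 7.56, 7.60 and 7.85 in knockout cultures, with overlapping genotypes and a difference of 0.18 (SE 0.13). Rnf8, which acts before it, had 0.01 (SE 0.13) and, with its second probe, -0.00045. Mdc1, the adaptor that reads phosphorylated H2AX, was detected on no array.

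**Figure D2:**
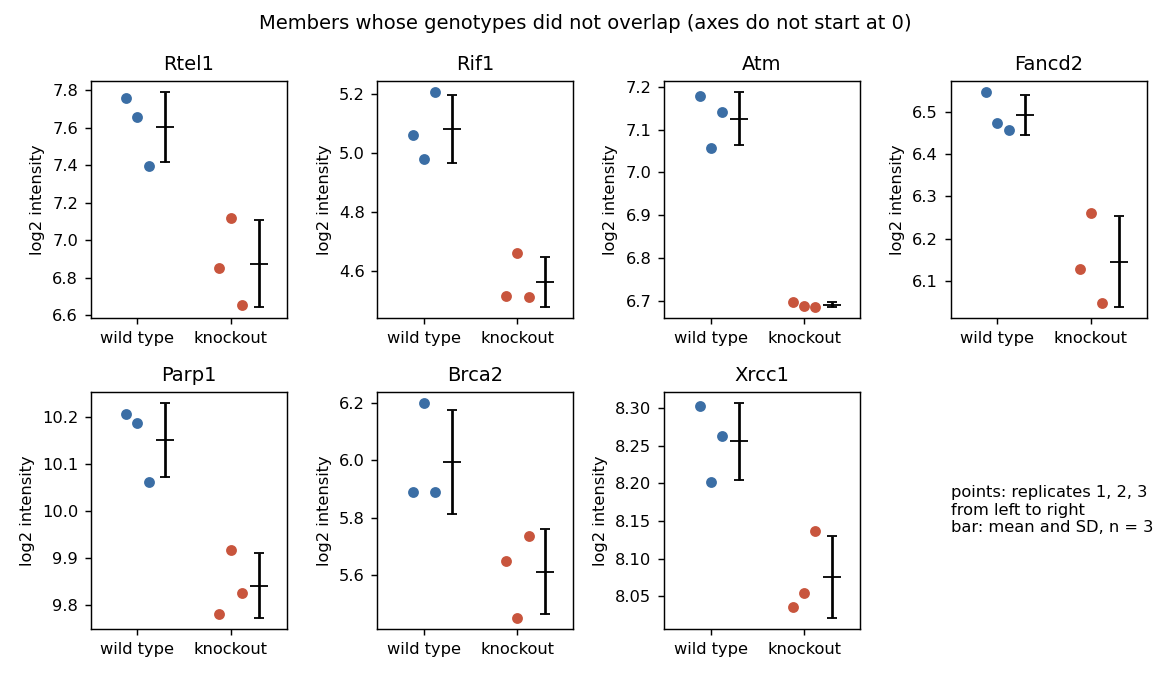
Normalized log2 intensity in each culture for the 7 genes whose genotypes did not overlap, with wild type at the left and knockout at the right of each panel. Over all genes 7.5% did not overlap with the knockout lower and 6.87% with the knockout higher. Points are the 3 replicates in order and bars the mean and SD; the vertical axes differ between panels and do not start at 0. Every knockout value lies below every wild-type value, by the largest margin relative to its spread in Atm. The other detected probes of Atm, not drawn here, overlapped.

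Of 7 homologous recombination genes only 3 could be tested, and Brca1, Bard1, Palb2 and Rbbp8 had no detected probe under these names. Brca2, a core mediator of homologous recombination, measured 5.89, 6.20 and 5.89 in wild type and 5.65, 5.45 and 5.74 in knockout cultures. The genotypes did not overlap (-0.38, SE 0.14, adjusted p = 0.608 by limma). Its second detected probe, which reached detection on 3 arrays, had -0.14 (SE 0.15). Rad54l, a DNA motor protein of the same pathway, measured 7.42, 7.54 and 7.08 against 7.24, 7.13 and 7.01 (-0.22, SE 0.15). Rad52 measured 7.03, 7.46 and 7.26 against 7.13, 6.97 and 7.43 (-0.07, SE 0.17), with 2 of the 3 knockout values inside the wild-type range. Palb2, the bridge between Brca1 and Brca2, was detected by a probe under its older name BC066140, at 5.98, 5.97 and 5.88 in wild type and 5.90, 5.63 and 5.34 in knockout cultures (-0.32, SE 0.16).

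For non-homologous end joining 3 of 5 genes were tested, 2 were below 0 and 0 passed (median -0.07, and -0.0051 without knockout replicate 1). Prkdc, the catalytic subunit of DNA-PK, measured 5.18, 5.44 and 5.41 in wild type and 5.39, 5.17 and 5.10 in knockout cultures (-0.12, SE 0.13). Xrcc6, which encodes Ku70, was bright at 10.70, 10.76 and 10.49 against 10.35, 10.66 and 10.72 (-0.07, SE 0.14), and its other probes had 0.03 and -0.16. Lig4, the ligase of this pathway, measured 5.58, 5.59 and 5.62 against 5.85, 5.87 and 5.32 (0.08, SE 0.17), so that its knockout values lay on both sides of wild type. Xrcc5, the Ku80 partner of Ku70, and Xrcc4, the partner of ligase 4, each have 1 probe, detected on no array.

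The DNA glycosylases, which start base excision repair, were evenly divided. Of 11, 8 were tested, 4 were above and 4 below 0, 0 passed, and their median was -0.02. Tdg, the thymine glycosylase that also acts on oxidised methylcytosine, measured 8.01, 7.45 and 7.68 in wild type and 7.99, 7.85 and 8.15 in knockout cultures (0.28, SE 0.17, adjusted p = 0.714 by limma). Nthl1, which removes oxidised pyrimidines, measured 7.18, 7.15 and 7.004 against 7.17, 7.24 and 7.74 (0.27, SE 0.17), with knockout replicate 3 as its high value. Mbd4, a glycosylase for deaminated methylcytosine, was detected on 5 arrays and measured 4.99, 4.95 and 4.93 against 5.04, 4.53 and 4.97 (-0.11, SE 0.15).

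The brightest probes of the other glycosylases lay within 0.1 of 0. Mpg, which removes alkylated bases, had -0.08 (SE 0.16), with other probes at 0.12 and -0.08. Ogg1, the glycosylase for oxidised guanine, had -0.07 (SE 0.16), and Mutyh, which removes the adenine misplaced opposite it, -0.05 (SE 0.12). Ung, the uracil glycosylase, had 0.02 (SE 0.15), with other probes at -0.01 and -0.10, and Smug1, a further uracil glycosylase, 0.02 (SE 0.14). Neil1, Neil2 and Neil3, glycosylases for oxidised bases, were detected on no array.

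All 8 genes for the later steps of base excision and for single-strand breaks were tested, with 5 below 0, 3 above 0 and 0 past the threshold (median -0.09, and -0.0022 without knockout replicate 1). Parp1, the main sensor of single-strand breaks, measured 10.21, 10.19 and 10.06 in wild type and 9.78, 9.92 and 9.83 in knockout cultures. The genotypes did not overlap (-0.31, SE 0.11, adjusted p = 0.601 by limma), and the other probes of Parp1 had -0.33 and -0.17. Xrcc1, the scaffold that Parp1 recruits, measured 8.30, 8.20 and 8.26 against 8.04, 8.05 and 8.14, also without overlap (-0.18, SE 0.11, adjusted p = 0.714 by limma). Fen1, the flap nuclease of long-patch repair and of replication, measured 10.30, 10.05 and 10.16 against 10.08, 9.98 and 9.69, and here knockout replicate 1 reached above wild-type replicate 2 (-0.25, SE 0.14).

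The remaining 5 genes of this group had differences on both sides of 0. Lig3, the ligase that works with Xrcc1, had -0.19 (SE 0.15), with other probes at -0.33 and 0.06. Parp2, a smaller relative of Parp1, had -0.01 (SE 0.14) and a second probe 0.13. Apex1, the endonuclease that cuts at the site a glycosylase leaves, had 0.08 (SE 0.13) and Aptx, which repairs aborted ligations, 0.12 (SE 0.19). Polb, the gap-filling polymerase, measured 6.43, 6.73 and 6.58 in wild type and 6.56, 6.89 and 7.09 in knockout cultures (0.27, SE 0.16).

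Rtel1 and the Fanconi anaemia gene Fancd2, the tested genes of crosslink repair and its neighbours, were both below 0 and neither passed. Rtel1 had the largest difference of the 34 tested members. It encodes a helicase that unwinds telomere loops and recombination intermediates. It measured 7.76, 7.66 and 7.40 in wild type and 6.85, 7.12 and 6.66 in knockout cultures, giving -0.73 (SE 0.16, 95% confidence interval -1.10 to -0.35), which did not pass over all genes (limma, adjusted p = 0.462). Unlike Atm, all 3 detected probes of Rtel1 separated the genotypes. The second measured 7.26, 7.41 and 7.28 against 6.92, 6.72 and 6.62 (-0.56, SE 0.13). The probe under the older name AW540478 measured 7.38, 7.19 and 6.94 against 6.84, 6.79 and 6.83 (-0.35, SE 0.14). Without wild-type replicate 1 and knockout replicate 3 together the brightest probe had -0.54. Before normalization it read 358, 236 and 268 intensity units in wild type and 202, 186 and 148 in knockout cultures.

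Fancd2, the Fanconi anaemia protein that is ubiquitinated at crosslinks, measured 6.55, 6.47 and 6.46 in wild type and 6.13, 6.26 and 6.05 in knockout cultures. The genotypes did not overlap (-0.35, SE 0.11, adjusted p = 0.589 by limma). Its second detected probe, near background and detected on 2 wild-type arrays and 1 knockout array, had -0.26 (SE 0.16). Fanca, a subunit of the complex that ubiquitinates it, was detected on no array.

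**Figure D3:**
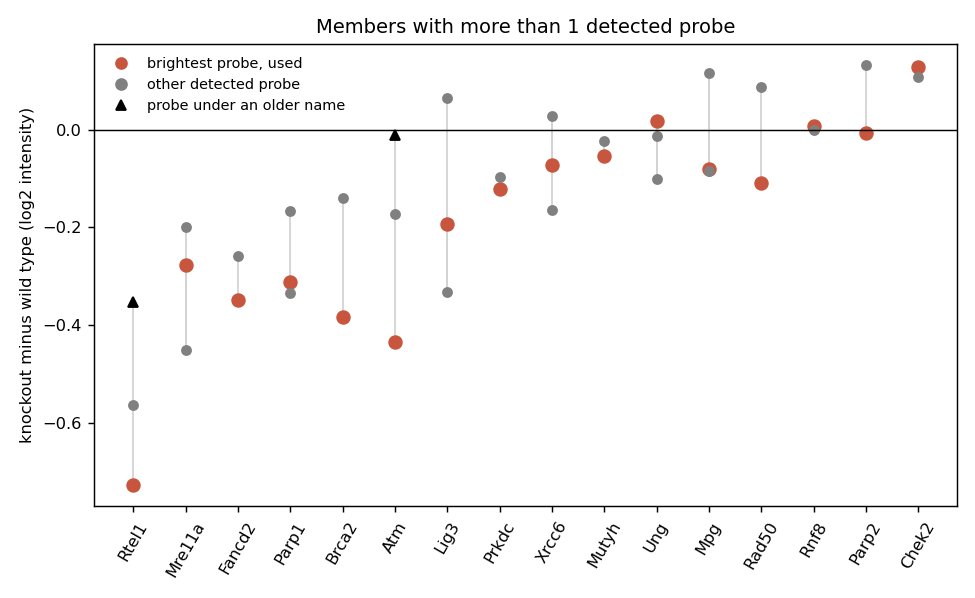
Knockout minus wild type (log2 intensity) for each detected probe of the 16 genes with more than 1. Red points are the brightest probes, grey points other detected probes and triangles probes under an older name. All probes of Rtel1, Mre11a, Fancd2, Parp1, Brca2, Atm, Prkdc and Mutyh lie below 0, and both of Chek2 above. Those of Atm run from -0.43 to -0.01.

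Of the 16 members with more than 1 detected probe under their names, 9 had all probes on the same side of 0 and 7 did not. The 7 were Lig3, Mpg, Parp2, Rad50, Rnf8, Ung and Xrcc6, whose brightest probes all lay within 0.2 of 0.

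Other genes of these pathways, 124 names of which 109 were on the array, gave 90 tested names, and 0 passed (percent called over all genes 0.0546%). At an unadjusted p under 0.05, 12 were lower and 2 higher in the knockout cultures, beside 3.75% and 4% of all genes, and the genotypes did not overlap for 18 lower and 5 higher, beside 7.5% and 6.87%. Their median was -0.07. The mean of Polh, the polymerase that copies past ultraviolet lesions, was 7.75 ± 0.041 (SD, n = 3) for wild type and 7.11 ± 0.27 (SD, n = 3) for the knockout, or -0.64 as a difference (SE 0.15, limma adjusted p = 0.467). Pole, a replicative polymerase counted here with base excision, had -0.54 (SE 0.14), as part of a list in which 8 of 9 were below 0 (median -0.32). The 4 of that list lower at an unadjusted p under 0.05 were all replication genes, Pole, Lig1 (-0.52), Rfc1 (-0.36) and Pold1 (-0.32). Its lowest difference, Mgmt at -0.81 (SE 0.60), came with 6.76 in knockout replicate 3 against 9.16 and 9.24 in knockout replicates 1 and 2. Of 18 other ATM and ATR pathway genes 12 were below 0 (median -0.13), with the smallest p for the replication fork protein Timeless (-0.53, SE 0.17), while p53 itself, Trp53, had 0.11 (SE 0.13) and its target Mdm2 0.15 (SE 0.14). Of 14 other homologous recombination genes 12 were below 0 (median -0.20), with the smallest p for Xrcc3 (-0.36, SE 0.12).

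The remaining lists had medians between -0.16 and 0.07. Nucleotide excision repair had a median of 0.03 over 20 names, with 13 above 0 and the smallest p for the nuclease Ercc5 (-0.28, SE 0.10). Mms19 is counted there under 2 names (-0.08, and -0.16 as Mms19l). Mismatch repair had 0.05 over 6 genes, with Msh6 at -0.26 (SE 0.11). Other end joining genes had 0.07 over 5 (-0.016 without wild-type replicate 1), with the polymerase Polm at 0.42 (SE 0.16). Translesion and post-replication genes had -0.02 over 12. Other Fanconi anaemia genes had -0.16 over 6, with the smallest p for Fance (0.18, SE 0.12). Whether these lists differ from each other was not tested.

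Genes of proliferation were measured beside these values, since several repair genes are transcribed in the S phase of the cell cycle. Of 22 replication and S phase genes 20 were below 0 (median -0.21) and of 18 mitosis genes 18 (median -0.34), and 0 of either passed. The replication list averaged 9.30, 8.97 and 9.06 in wild-type replicates 1 to 3 and 8.93, 8.93 and 8.72 in knockout replicates 1 to 3, with a summed level from 16721 to 21099 in wild type and from 13906 to 16441 in knockout cultures. It was thus highest in wild-type replicate 1 and lowest in knockout replicate 3. The 34 repair genes averaged 7.40, 7.43 and 7.36 in wild type and 7.26, 7.31 and 7.32 in knockout cultures. The genotype means of these 34 did not overlap either, and knockout replicate 3 was the highest of its group.

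Member by member, knockout replicate 3 was the lowest of the 6 cultures for 13 of the 34 genes and the highest for 8, and wild-type replicate 1 the highest for 10. Over all genes those shares were 25.5%, 23.9% and 14.9%. Without both cultures 24 of 34 members were below 0 and 4 had an unadjusted p under 0.05, all 4 lower, beside 51.2% and 2.99% of all genes in that setting. Without both, the replication list had a median of -0.045 and the mitosis list -0.18. The part of proliferation in the repair values was not tested.

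Markers of other cell types also differed between the genotypes in direction. Of 14 tested skeletal muscle markers of 17 on the array, 13 were above 0 (median 0.68), with a summed level from 3994 to 5188 in wild type and from 5565 to 6908 in knockout cultures; Myod1, Myf5 and Ckm were not tested for want of detection. Of 9 tested macrophage and leukocyte markers of 16, 9 were below 0 (median of fitted differences -1.04, and -0.67 without wild-type replicate 2). Lyz2 is counted among the 9 under 2 names (-1.50, and -0.64 as Lyzs). Of these 9, 4 were detected on fewer than 3 knockout arrays, so that the sizes of their differences are set partly by background. Their level summed over the list ran from 571 to 1050 in wild type and from 289 to 391 in knockout cultures, while Lyz1, C1qa, Csf1r, Emr1, Tyrobp, Ptprc and Cx3cr1 were not detected on 3 arrays. None of these passed singly. Endothelial, epithelial and neural markers had medians of 0.32 over 4, 0.26 over 7 and 0.42 over 6 tested genes, and of 8 erythroid markers Tfrc alone was tested, at -0.03. These medians were 0.14 without knockout replicate 3, 0.024 without knockout replicate 2 and 0.20 without knockout replicate 1, respectively. Of the 4 endothelial markers 1 was below 0 (Eng, -0.59, beside Flt1 at 0.63). Of the 7 epithelial markers 2 were below 0, among them Krt14 at -0.77, beside Cldn4 at 1.11. The part of these cells in the repair values was not tested.

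**Figure D4:**
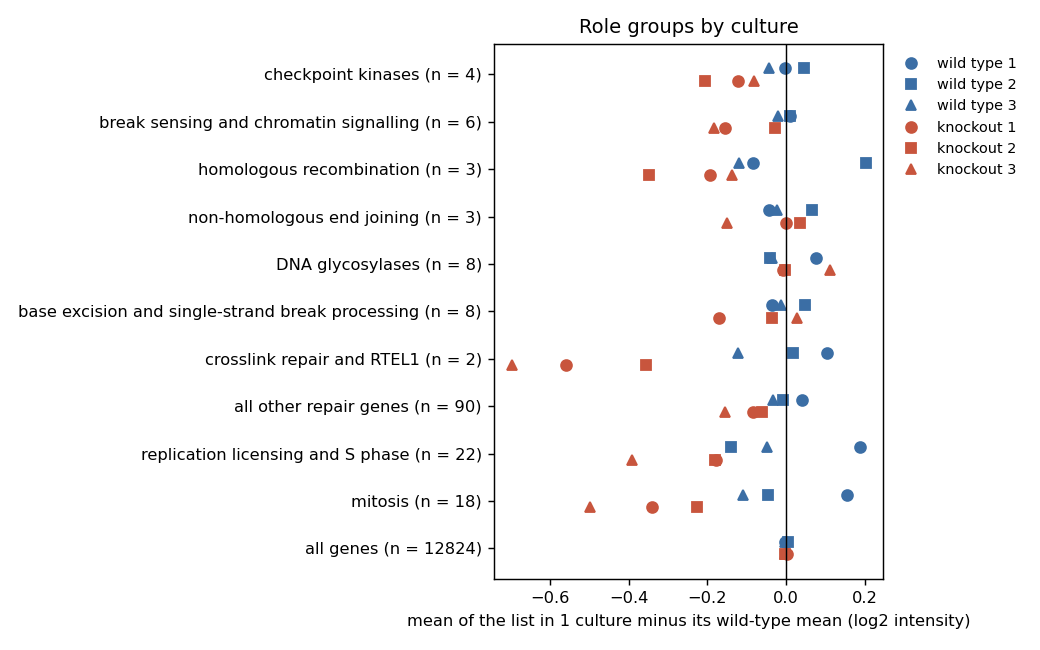
Mean of each role group in each culture minus that group's wild-type mean (log2 intensity), with other repair genes, proliferation lists and all genes for comparison. Blue marks wild type and red knockout, and the shape gives the replicate. The knockout means lie below the wild-type means in the checkpoint kinase, homologous recombination and crosslink groups, and overlap them in end joining, glycosylases and base excision processing. They are also lower in break sensing, but without Rif1 that group overlaps, at 8.92 in knockout replicate 2 against 8.82 to 8.90 in wild type. Among the checkpoint kinases Atm alone separated the genotypes gene by gene, and among the homologous recombination genes Brca2 alone.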

How the data were processed

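Biotinylated RNA of each of the 6 cultures was measured on a 1-colour Illumina bead array. The authors deposited the mean bead intensity per probe, with the bead SD, the bead count and a detection value that is a fraction from 0 to 1, exported with GenomeStudio version 1.6.0 without normalization, per the file headers. The authors also deposited normalized values, a score for which the submitters' processing notes name lumi, without a log base or a method in the sources used here. The deposited series matrix holds such values, read as log2, and was not used. Against log2 intensity the slope of the normalized score was 0.941 between 9 and 11 and 0.537 between 6 and 7, so differences of dim probes are compressed there. Of the 48 per-array columns 24 were not used.

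The neqc function (limma version 3.58.1, R version 4.3.3) corrected intensities for background from the detection values, added an offset of 16, quantile-normalized them and took log2. Of 45281 probes 18221 were detected on at least 3 arrays, and the brightest per target name was kept. Genes were compared with lmFit and eBayes, knockout minus wild type, two-sided, adjusted by Benjamini-Hochberg over 12824 genes with a threshold of 0.05. Names were not updated, so that Dynll1 counts under 2 names among the 7 genes past the threshold. Mms19 and Lyz2 likewise count under 2 names in their lists. A median is that of the fitted differences, and a summed level adds normalized intensities less the offset. The procedure was tested on 10 simulated data sets of 12824 genes, 200 of them changed, spread evenly over 1.25, 1.5, 2 and 4-fold. It recovered 8% of changes of 1.5-fold, 61.2% of 2-fold and 96.2% of 4-fold. False calls averaged 6.25%. A change of 1.5-fold would thus mostly be missed. The simulated noise was independent between genes, and recovery depends on how many genes change, so recovery in the data can be lower. The 46 members, the lists and the naming rule were chosen with earlier results of these data known. Per-array values are given for Atm, Atr and, in each role group, the up to 3 members with the smallest p, with some further ones chosen after their values were seen. Arrays left out were dropped from the fit, with normalization and filter kept. Only 3 arrays per genotype limit the precision.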

Additional observations from a re-analysis of the deposited data

How the results depend on the processing

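No member passed an adjusted p of 0.05 under any of the 18 alternatives of processing, variance model, pairing or arrays, or at 0.10, and 6 passed an unadjusted p of 0.05. Of the members, 21 were followed singly, namely Atm, Atr and the up to 3 of each role group with the smallest p. Their lowest adjusted p was 0.215 (limma), for Atm with array weights. Of these members 12 stayed below 0 and 2 above 0 throughout. Grouping probes by reference symbols made Atm -0.01 and the median of checkpoint kinases -0.045. Over all genes 7 passed, but 3 without background correction, 3 in the submitters' normalized values, 4 without the filter, 12 with array weights, 994 at an unadjusted p of 0.05 and between 2 and 6 with 1 array left out. Atmin lost its call with detected probes averaged (-1.28, adjusted p = 0.0589) and when a wild-type array was left out, and lay between -2.08 and -1.84 with any 1 array left out.

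Scaling arrays to a common median moved all genes by -0.17. It put 30 of 34 members below 0, beside 78.1% of all genes, with medians of -0.23 for members, -0.25 for other repair genes, -0.22 for checkpoint kinases, -0.28 for break sensing, -0.43 for homologous recombination, -0.21 for end joining, -0.18 for glycosylases, -0.32 for base excision processing and -0.73 for the crosslink group. It turned Chek2 to -0.074, Rnf168 to -0.054, Lig4 to -0.047 and Fance to -0.050. In the submitters' normalized values medians were -0.028 for members, -0.028 for other repair genes, -0.034 for checkpoint kinases and -0.25 for the crosslink group. Without background correction checkpoint kinases had -0.054 and the crosslink group -0.34, which had -0.39 with normexp and -0.35 without the filter. Break sensing had 0.016 with array weights.

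Leaving out 1 array gave medians of -0.12 to -0.034 for members, -0.19 to -0.034 for checkpoint kinases and -0.13 to -0.031 for break sensing, each nearest 0 without wild-type replicate 2. It gave -0.12 to -0.0022 for base excision processing, nearest 0 without knockout replicate 1, and -0.094 to -0.025 for other repair genes, nearest 0 without knockout replicate 3. With 1 array left out Chek2 lay between -0.016 (without knockout replicate 3) and 0.20, Rad52 between -0.20 and 0.031 (knockout 2), Xrcc6 between -0.15 and 0.041 (knockout 1), Lig4 between -0.014 (knockout 2) and 0.26, Mbd4 between -0.21 and 0.048 (knockout 2), and Chek1 between -0.25 and -0.0088 (wild type 2). Medians near 0 changed sign with 1 array left out, between -0.027 and 0.021 for glycosylases, -0.016 and 0.16 for other end joining, -0.013 and 0.081 for mismatch repair, -0.045 and 0.0088 for translesion and -0.27 and 0.068 for fibroblast markers. End joining members lay between -0.098 and -0.0051. Without both wild-type replicate 1 and knockout replicate 3 Atr had 0.027 and Chek2 -0.018. The cause of these shifts was not tested. With the replicate number as a block, 0 members and 6 genes passed. Deviations of same-numbered cultures from their genotype means correlated at 0.23, -0.19 and -0.20. Deviations from a mean of 3 constrain each other, so these values cannot tell whether the numbers pair cultures.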
